A study of Mus musculus with 20 samples.

Results

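Aqp8, Mgat4c, Sgcz, Aspa, Gprc5a, Aldh3a1, Accsl and Calcoco2 are 8 of the 23361 entries in the count tables of mouse embryonic stem cells turning into epiblast stem cells. They were chosen by their symbols because their counts dropped to none or hardly any once the cells had left 2i medium, with no numerical threshold, so their changes after day 0 are described below with no test. Stranded mRNA libraries came from PGK cells, a female line, and E14 cells, a male line. Both were sampled in 2i at day 0 and then in medium with activin A and Fgf2 on fibronectin, at day 4, day 10, a later day from 19 to 23 and a last day from 27 to 30. Each line was carried through 2 differentiation experiments, diff2 and diff3, which gave 20 libraries in 10 groups of 2, and every mean ± SD has n = 2. The labels name no genetic change in either line. With 1 line of each sex, sex and line cannot be told apart, and nothing states that the experiments began from separate cultures, so p-values measure only the spread between these libraries.

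2i medium holds mouse embryonic stem cells in the naive state of the early epiblast by blocking MEK and GSK3, and activin with Fgf2 moves them to the primed state of the epiblast after implantation. The 8 genes belong to no common pathway. Aqp8 encodes a water channel, Sgcz a sarcoglycan of the membrane complex around dystrophin, and Gprc5a an orphan receptor first known as a gene induced by retinoic acid. Mgat4c belongs to a family of glycosyltransferases that add branches to N-glycans, Aspa splits N-acetylaspartate into acetate and aspartate, and Aldh3a1 oxidises aldehydes and is abundant in the cornea. Accsl is named for its likeness to the plant enzyme that makes the precursor of ethylene, and Calcoco2 is grouped here with the receptors of selective autophagy. None of them is among the naive markers used below to check the cells.

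The libraries held between 2020254 and 26936415 counts. The E14 diff3 libraries at day 0 and day 4 were the shallow ones, with 3376500 and 2020254 counts, so that 3 counts, the floor used here for a count of 0, equal 0.888 and 1.48 CPM (counts per 1000000 counts of the library) there and 0.111 to 0.253 CPM in the other 18. Floors and bounds cover counting error only. The labelled cell states were checked on marker lists. The summed level of 12 naive genes went from between 4808 and 5741 CPM at day 0 to between 122 and 137 CPM at days 27 to 30 in PGK, and in E14 from between 5311 and 6878 CPM to between 140 and 164 CPM. That of 10 primed genes went from 282 to 284 CPM to between 2664 and 2690 CPM in PGK, and from between 94.8 and 121 CPM to between 2147 and 3311 CPM in E14. Lists of other cell types moved over the same days. The 8 germ cell genes all had counts at day 0 in each line. In E14 these came from diff2 alone for Mael, Mov10l1, Tex101 and Taf7l. The genes summed to 227 to 350 CPM in PGK and 32.9 to 195 CPM in E14 at day 0. At day 4 the sums were 75.9 to 194.5 and 74.7 to 91.5 CPM, and at days 27 to 30 at most 0.817 CPM. By day 4 the genes moved in different directions. Dazl went from 108.5 to 5.73 CPM in PGK and from 47.1 to 7.93 CPM in E14, and Ddx4 from 3.95 to 50.35 and from 13.4 to 52.15 CPM. The 10 fibroblast genes stood at most at 17.7 CPM at day 0, with Twist2 and Dcn at 0 in both lines, and at 322 to 504 CPM at days 27 to 30. Tagln was then at 143 CPM in PGK and 104 CPM in E14, Acta2 at 71.1 and 148 CPM and Col1a2 at 63.4 and 94.7 CPM. Col1a1 stood at 38.65 and 16.5 CPM, Col3a1 at 31.7 and 34.9 CPM and Postn at 14.55 and 7.83 CPM. Lower ones were Thy1 (4.4 and 4.7 CPM), Dcn (1.25 and 1.02 CPM), Lum (0.67 and 1.08 CPM) and Twist2 (0.461 and 0.368 CPM). These sums do not show that cells of these types were present, and any part of theirs in the members' levels was not tested. Fewer cells of a type cannot be told apart from less RNA per cell.

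The genes lie on 6 chromosomes (GRCm38, GENCODE release M21). Aqp8 is on chromosome 7 from 123462291 to 123468004, plus strand. Mgat4c is on chromosome 10 from 101681487 to 102391469, plus strand, and spans 710 kb. Sgcz, the longest at 1139 kb, is on chromosome 8 from 37522298 to 38661508, minus strand. Gprc5a is on chromosome 6 from 135065651 to 135084709, plus strand, and Accsl on chromosome 2 from 93855361 to 93869157, minus strand. Chromosome 11 holds the other 3, namely Aspa from 73304992 to 73329596 and Calcoco2 from 96099326 to 96111964, both on the minus strand, and Aldh3a1 from 61207537 to 61218421 on the plus strand. No annotated gene shares exonic bases with any of the 8. The miRNA genes Mir3059 and Mir383 lie inside Mgat4c and Sgcz, on the same strand, and had no counts in any library.

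Promoters of 4 of the 8 genes matched the RefSeq table (GRCm38.p6), 9 promoters in all. The 250 bases before a start site are shown once for each of these 4 genes, the members the table holds. Base composition and the motif can thus be read, 5′ to 3′ on the strand of the gene, with a searched motif in capitals. The start sites of the Aqp8, Mgat4c and Accsl sequences shown lie at most 3 bases from the gene starts given above. That of Aspa lies 4959 bases from its gene start, inside the gene, so its sequence is not the one before that gene start.
Aqp8, chr7:123462044-123462293: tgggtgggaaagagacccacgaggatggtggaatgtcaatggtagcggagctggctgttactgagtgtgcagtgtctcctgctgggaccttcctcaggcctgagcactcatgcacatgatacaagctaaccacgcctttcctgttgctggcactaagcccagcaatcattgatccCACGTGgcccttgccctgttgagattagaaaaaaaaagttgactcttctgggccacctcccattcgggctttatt
Mgat4c, chr10:101681237-101681486: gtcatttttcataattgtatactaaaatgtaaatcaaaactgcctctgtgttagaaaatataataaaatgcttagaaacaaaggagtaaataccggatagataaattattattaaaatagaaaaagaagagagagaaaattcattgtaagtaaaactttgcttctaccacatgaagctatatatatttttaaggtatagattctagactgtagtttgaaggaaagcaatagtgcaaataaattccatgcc
Aspa, chr11:73324638-73324887: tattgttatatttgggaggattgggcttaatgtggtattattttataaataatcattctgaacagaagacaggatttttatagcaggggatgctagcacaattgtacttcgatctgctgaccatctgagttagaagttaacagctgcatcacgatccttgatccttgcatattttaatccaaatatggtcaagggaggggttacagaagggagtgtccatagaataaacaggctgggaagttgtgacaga
Accsl, chr2:93869158-93869407: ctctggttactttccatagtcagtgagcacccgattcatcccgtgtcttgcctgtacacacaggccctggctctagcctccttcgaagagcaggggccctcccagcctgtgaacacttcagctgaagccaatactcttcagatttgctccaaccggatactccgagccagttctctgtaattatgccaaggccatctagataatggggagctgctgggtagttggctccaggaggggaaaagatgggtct
Motifs known for factors of naive cells were searched on both strands, namely TCAAGGTCA for Esrrb, GGGNGTGG for Klf factors, TTCNNNGAA for Stat3 and ATGCAAAT for Oct factors, together with the E-box CACGTG. The capitals in Aqp8 mark the E-box, which reads the same on both strands and begins 75 bases before the start site. It was the only match in the 9 promoters. Of all 32851 RefSeq promoters cut to the same length, 6.02% held this E-box, 0.387% the Esrrb letters, 15.9% the Klf letters, 7.02% the Stat3 letters and 1.6% the Oct letters. The Mgat4c sequence shown was rich in A and T, with a GC content of 26.8%, and the other 3 promoters of that gene had 38.4 to 47.6%. Aspa had 38.8%, Aqp8 52.4% and the Accsl sequence shown 53.6%, and the median of all promoters was 52.4%. The ratio of observed to expected CpG ran from 0 to 0.568 over the 9 promoters, and 2 of them, both of Mgat4c (0.437 and 0.568), lay above the median of 0.373.

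Aqp8, the water channel, had counts at day 0 only. PGK held 45.1 CPM in diff2 and 6.5 CPM in diff3, and E14 1.57 CPM in diff2 and no counts in diff3. All 16 later libraries of both lines had 0 counts. In PGK, where the day 0 mean was 25.8 ± 27.3 CPM, the level was at least 311-fold lower at day 4 and at least 387-fold lower at days 27 to 30. Taken from diff3 alone, the lower of the day 0 libraries, these bounds were 78.3-fold and 97.6-fold. E14 began at 0.783 ± 1.11 CPM, which allowed a bound of at least 4.07-fold at day 4 and 11.8-fold at days 27 to 30, both from diff2, the only library with counts.

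Sgcz, the sarcoglycan, was mostly a signal of 1 library. PGK diff3 held 25.1 CPM at day 0, against 2.11 CPM in PGK diff2, 1.42 CPM in E14 diff2 and no counts in E14 diff3. Later libraries of PGK had 0 counts in 8 of 8 cases, and those of E14 in 7 of 8, with 2 counts in diff3 at day 10. The PGK mean of 13.6 ± 16.3 CPM at day 0 was at least 164-fold above that at day 4, and the diff2 library alone gave at least 25.4-fold. The diff2 libraries of the lines were thus close to each other, and diff3 held the high and the low end.

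Mgat4c, the glycosyltransferase, followed the same libraries. Its day 0 level was 46.9 CPM in PGK diff3, 1.38 CPM in PGK diff2 and 0.373 CPM in E14 diff2, with no counts in E14 diff3. The 8 later PGK libraries had 0 counts, which puts the level at least 291-fold under the day 0 mean of 24.1 ± 32.2 CPM at day 4. That bound came mostly from diff3, and from the diff2 library alone it was at least 16.6-fold. In E14 the gene had 5 counts at day 0 and 5 in all later libraries together, so no drop was detectable there at this depth.

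Aspa, the aspartoacylase, was present in all 4 day 0 libraries. It measured 17.9 CPM in PGK diff2, 138 CPM in PGK diff3, 11.4 CPM in E14 diff2 and 33.8 CPM in E14 diff3, so diff3 was the higher experiment in both lines. At day 4 PGK kept 3 and 13 counts, a mean of 0.402 ± 0.271 CPM or 193-fold less than at day 0, and E14 had none, at least 117-fold less. From diff2 alone at day 0 these were 44.4-fold and at least 59.4-fold. Later libraries had at most 10 counts, in E14 diff3 at day 10.

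Aldh3a1, the aldehyde dehydrogenase, stood at similar levels in both lines at day 0, with 16.4 and 3.88 CPM in PGK and 5.52 and 16.3 CPM in E14 (diff2 and diff3). Of the 16 later libraries 15 had 0 counts, and PGK diff2 at day 4 had 1. The bound at days 27 to 30 was at least 152-fold in PGK and at least 165-fold in E14, and from the lower day 0 library alone at least 58.3-fold (diff3) and 83.5-fold (diff2). No library after day 4 held a count of the gene.

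Accsl was the member with the highest day 0 level in E14, at 105 CPM in diff2 and 122 CPM in diff3. PGK held 19.2 and 41.3 CPM, and edgeR did not call a difference between the lines (adjusted p = 0.436). At day 4 the diff2 libraries kept 7 counts in PGK and 6 in E14 while both diff3 libraries had none, which made the means 123-fold and 513-fold lower than at day 0 (78-fold in PGK from diff2 alone at day 0). E14 still had 2 and 3 counts at day 10. From day 19 on no library had a count, and the level in E14 was at least 1714-fold lower at days 27 to 30.

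Calcoco2 was the most abundant of the 8 in PGK. Day 0 levels were 92.8 and 166 CPM in PGK and 52.5 and 34.7 CPM in E14 (diff2 and diff3). Here too edgeR did not call a difference between the lines (adjusted p = 0.613). Its loss at day 4 was uneven in PGK, where diff2 kept 104 counts, or 7.29 CPM, and diff3 a single count. E14 kept 4 and 0 counts on that day. Unlike Aqp8 and Aldh3a1, Calcoco2 then stayed at the edge of detection, with 1 to 10 counts in 8 of the 12 libraries from day 10 on, and both PGK libraries of days 27 to 30 had none.

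Gprc5a went against the description of genes that are switched off. Day 0 levels were 16.1 and 13 CPM in PGK and 14.8 and 25.2 CPM in E14 (diff2 and diff3). At day 4 the PGK mean was 1.7 ± 0.273 CPM and E14 had no counts, at least 104-fold under its day 0 mean. At day 10 the gene was back at 5.81 ± 2.88 CPM in PGK and 9.01 ± 2.78 CPM in E14, from 93 and 88 counts and from 132 and 180 counts. PGK then held 6.88 ± 5.37 CPM (days 19 to 23) and 0.678 ± 0.759 CPM (days 27 to 30), and E14 1.42 ± 0.777 CPM and 3.63 ± 1.67 CPM. All 12 libraries from day 10 on held counts, between 3 and 180, yet none reached the lowest day 0 level of its line. The 8 trophoblast markers summed to 35.9 to 59.9 CPM in E14 at day 4, with Cdx2 and Elf5 at 0, and to 498 to 781 CPM at day 10. Most of the day 10 sum was Krt8 (432.4 CPM in diff2 and 421.5 CPM in diff3) and, in diff3, Eomes (336.4 CPM). Cdx2 and Elf5 were still at 0 in diff2 and at 0.978 and 0.235 CPM in diff3. Tfap2c stood at 123 ± 56.6 CPM in E14 at day 0 and at 6.72 ± 4.14 CPM at day 10. Krt7 had means of 14.3 CPM at day 0, 1.93 CPM at day 4 and 17.7 CPM at day 10 in E14. In E14 the sum was 586 to 607 CPM at days 19 to 23 and 379 to 599 CPM at days 27 to 30, with Gprc5a at 1.42 and 3.63 CPM. In PGK it was 134 to 327 CPM at day 4 and 700 to 824 CPM at day 10, with Gprc5a at 1.7 and 5.81 CPM. It was then 606 to 739 CPM at days 19 to 23 and 513 to 617 CPM at days 27 to 30 in PGK, with Gprc5a at 6.88 and 0.678 CPM. The part of these markers in the level of Gprc5a was not tested.

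**Figure D1:**
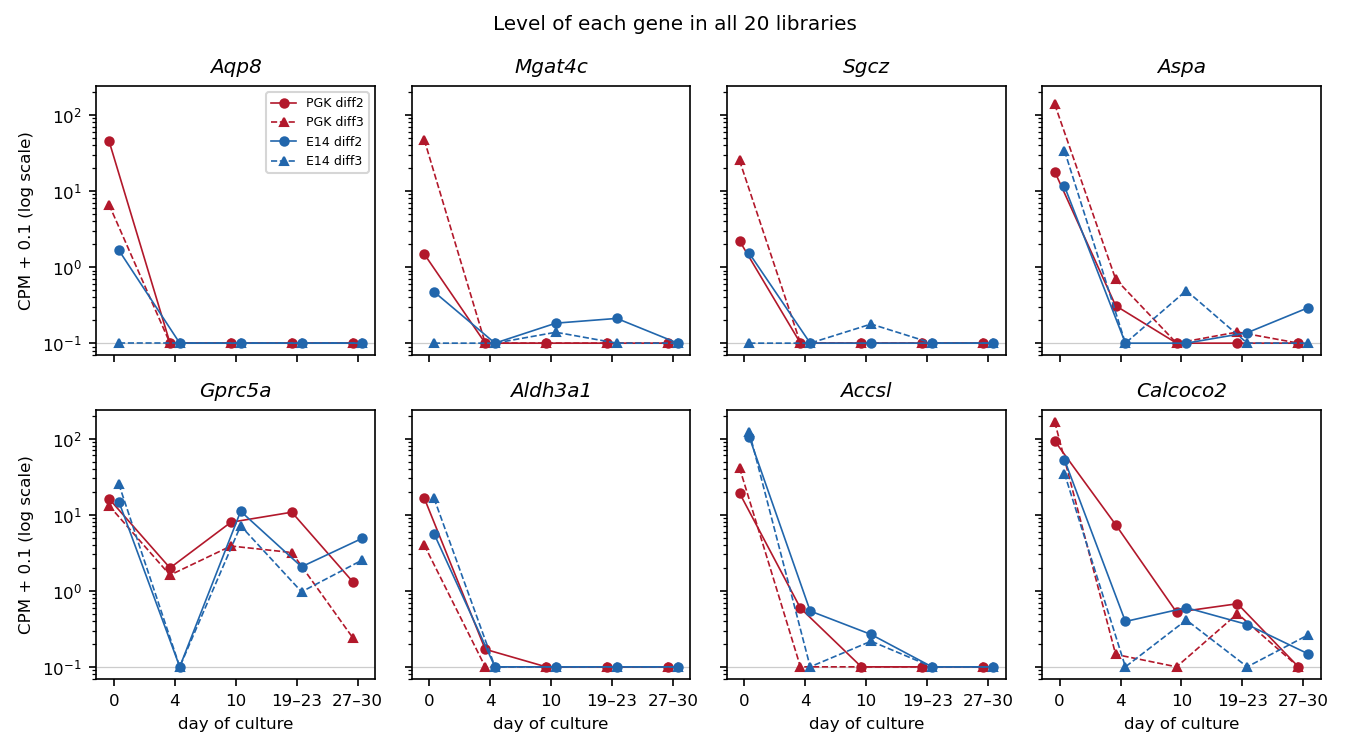
Level of each of the 8 genes in every library, as CPM + 0.1 on a log axis, by day of culture (PGK red, E14 blue, diff2 circles and solid lines, diff3 triangles and dashed lines; the grey line marks 0 counts). Aqp8 and Aldh3a1 lie on the grey line in all libraries after day 4, whereas Gprc5a returns to 9.01 ± 2.78 CPM in E14 at day 10.

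Both day 0 libraries lay above all 8 later ones for 8 of 8 members in PGK, and for all 5 members with a mean of at least 5 CPM at day 0 in E14. Among all genes at that level the share was 19.9% in PGK and 16.7% in E14, and the choice of the members used this difference. At most 1% of the day 0 mean was left at day 4 for 6 of 8 members in PGK, against 0.598% of the 10375 genes with at least 5 CPM, and for 5 of 5 in E14, against 1.59% of 10214. At days 27 to 30 this held for 7 of 8 in PGK, where the share of all genes was 2.59%, and for 4 of 5 in E14, where it was 1.60%. The member left out at the late stage was Gprc5a in both lines. At day 4 in PGK it was joined by Calcoco2, which kept 2.84% of its day 0 mean.

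Members also differed in how abundant they were per length of transcript at day 0. Calcoco2 ranked 540th in PGK among 21699 genes by CPM per kb of exon, at 79.7 CPM per kb, and 2147th in E14. Accsl ranked 1300th in E14, at 40.5 CPM per kb, and 4741st in PGK. Mgat4c was the lowest member on this scale in both lines, at 2.26 CPM per kb in PGK and 0.0174 CPM per kb in E14. In PGK the order was Calcoco2, Aqp8 (16.3), Aspa (13.1), Accsl (10.8), Gprc5a (6.99), Aldh3a1 (5.22), Sgcz (4.5) and Mgat4c, in CPM per kb. The SDs of Aqp8, Aspa, Sgcz and Mgat4c exceeded their means, so the order of neighbours below Calcoco2 was not beyond the spread.

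**Figure D2:**
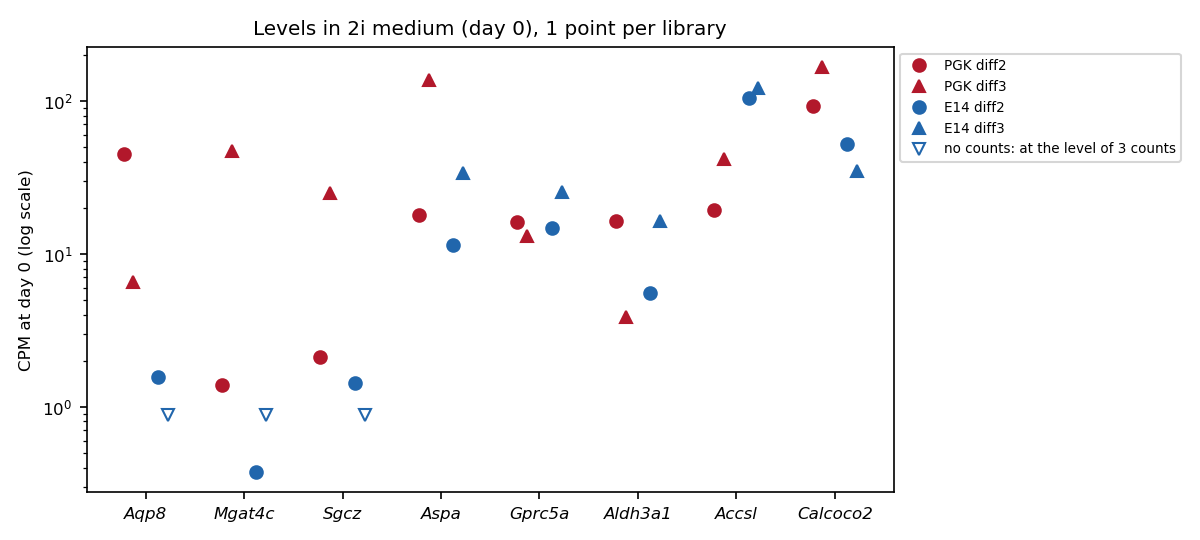
Day 0 level of each gene in CPM on a log axis, with 1 point per library (PGK red, E14 blue, diff2 circles, diff3 triangles); open triangles mark the E14 diff3 library where it had no counts, drawn at its floor of 0.888 CPM. Aqp8, Mgat4c and Sgcz are the 3 genes without counts there, and Mgat4c and Sgcz are highest in PGK diff3.

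The choice of the members did not compare the lines, but it used their day 0 levels. Aqp8, Mgat4c and Sgcz had few counts in E14 at day 0 (21, 5 and 19), so their drop was seen mainly in PGK. A higher level in PGK is thus partly built into the choice of these 3, and their test is not independent of it. The lines were tested with edgeR over 15732 genes. At day 0, 0 of 8 members passed at an adjusted p of 0.05, against 0.509% of all genes tested. Unadjusted p was under 0.05 for 3 members, and DESeq2 called 0. Those 3 were higher in PGK. Mgat4c was 6.61 higher on the log2 scale (SE 1.96, adjusted p = 0.203), Aqp8 4.85 (SE 1.68, adjusted p = 0.291) and Sgcz 4.1 (SE 1.8, adjusted p = 0.396), and each was higher in both PGK libraries than in the E14 diff2 library. Without the E14 diff2 library Aqp8 alone passed (log2 difference 11.94, adjusted p = 0.0414), in a comparison with the single shallow library that had no counts, where the fitted value is no bound. Accsl was lower in PGK, with a log2 difference of −1.83 (SE 0.89, adjusted p = 0.436), and Calcoco2 1.62 higher (SE 1.19, adjusted p = 0.613). Aspa (1.89), Gprc5a (−0.38) and Aldh3a1 (−0.01) turned sign when a single diff3 library was left out, Aspa to −0.23 without that of PGK and Gprc5a to 0.02 without that of E14. Aldh3a1 went to 0.70 without the PGK and to 0.91 without the E14 library.

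The choice of the members used their levels at day 4, so the lines are described there with nothing read from a test. Aqp8, Mgat4c and Sgcz had no counts in either line and Aldh3a1 had 1, and such genes could not pass. With edgeR 0.165% of all genes passed, 26 in number, and 44 with the experiment as a block; 0 of 8 members were among them with either. Unadjusted p was under 0.05 for 2 members, and DESeq2 called 0. The choice of members for low counts after day 0 largely fixed these outcomes, so they say nothing about a difference between the lines. Gprc5a had 27 and 33 counts in PGK and none in E14, so PGK was at least 8.84-fold higher. Calcoco2 stood at 3.67 ± 5.13 CPM in PGK and 0.147 ± 0.208 CPM in E14, and nearly all of its PGK counts came from diff2. Accsl kept counts in the diff2 library of each line, and Aspa in PGK only, where 3 counts would be 1.48 CPM in the shallow E14 library.

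The experiments were compared at day 0 over both lines, on the same day 0 levels that the choice of the members used. With edgeR 0 of 8 members passed between diff3 and diff2, against 2.57% of genes. Unadjusted p was under 0.05 for 2, and DESeq2 called 0. These were Aspa, higher in diff3 (log2 difference 2.23, SE 0.82, adjusted p = 0.175), and Aqp8, lower in diff3 (−3.30, SE 1.44, adjusted p = 0.25). A library code appears in the titles of the diff2 libraries of day 0, day 4 and day 10 in both lines, and in no other title. Code and experiment thus cannot be told apart at day 0. Within diff2 the comparisons of days 27 to 30 with day 0 also set libraries without the code against libraries with it. The differences of Mgat4c (2.72) and Sgcz (0.79) rested on PGK. E14 had 5 counts of Mgat4c in diff2, or 0.373 CPM, and 0 in diff3, whose floor of 0.888 CPM is higher, so no direction could be read in that line. Sgcz turned to −7.73 or −7.70 without the PGK diff2 or diff3 library, a fitted value from 19 counts against 0 that is no bound. Without either of these PGK libraries Aldh3a1 went from −0.31 to 1.47 and Calcoco2 from 0.09 to −0.69. Gprc5a went from 0.19 to −0.30 without either E14 library.

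Likeness of pattern was measured as Pearson r of log2(CPM + 1) over the 20 libraries, among 10041 genes with at least 5 CPM at day 0. These values are descriptions, since all such genes share the step between 4 day 0 libraries and 16 later ones, and the libraries' depth. Mgat4c was closest to Sgcz (r = 0.977), followed by the aldehyde oxidase gene Aox3 (0.966) and Frrs1l (0.95), and Sgcz was closest to Frrs1l (0.981) and Sp100 (0.979). Without the PGK diff3 library at day 0 the r of Mgat4c and Sgcz was 0.935, and that of Mgat4c and Frrs1l 0.797. Aqp8 was closest to Ciita (0.989), the master regulator of MHC class II genes, whose day 0 levels were 16.6 and 2.67 CPM in PGK and 1.27 and 0 CPM in E14. Aspa was closest to Sh2d4a (0.989) and Bhmt (0.983), a methyltransferase of the methionine cycle. Aldh3a1 was closest to Dpep3 and Fcgrt (both 0.983), Accsl to the channel gene Trpm1 (0.988), and Calcoco2 to Phf11d (0.985) and to Tcl1 (0.983), a known gene of naive cells. Gprc5a was again apart: no gene reached 0.9, and Hspb8, a small heat shock protein gene, was closest at 0.858. With a pseudocount of 0.1 only 3 of the 24 nearest genes were the same, and without the 2 shallow libraries 12, so most of the names depend on these choices.

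Relatives and partners of each gene were taken from 8 lists with 79 genes, of which 76 had a row. Of 62 tested in PGK, 4 rose and 10 fell by day 4, where 8.35% of all genes tested rose and 6.44% fell. Of 61 tested in E14, 3 rose and 3 fell by day 4, against 5.16% and 4.40% of all genes. By days 27 to 30, 5 rose and 10 fell in PGK (13.0% and 12.0% of all genes), and 4 rose and 3 fell in E14 (8.73% and 4.99%). DESeq2 called 6 higher and 8 lower in E14 at day 4 and 8 and 6 late, and 16 lower in PGK late. Of all genes tested DESeq2 called 1527 of 14065 higher and 1329 lower in E14 at day 4. Late it called 2154 of 14423 higher and 1443 lower in E14, and 2622 of 15703 lower in PGK. The comparisons of 1 line share its day 0 libraries. The difference between the lines in the change to day 4 was tested for 84 genes of these lists and the chromosomal neighbours, and edgeR called 0 (lowest adjusted p = 0.319, and unadjusted p under 0.05 for 6).

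Among aquaporins Aqp3, which carries water and glycerol, dropped like Aqp8 but from a far higher level. It stood at 421 and 340 CPM in PGK and 312 and 416 CPM in E14 at day 0, and at 2.17 ± 1.59 and 1.44 ± 2.03 CPM at day 4. The log2 fold change was −7.56 in PGK (SE 0.61, adjusted p = 6.82e-05) and −7.47 in E14 (SE 1, adjusted p = 0.00148). At days 27 to 30 it measured 0.0236 ± 0.0334 CPM in PGK and 0.102 ± 0.144 CPM in E14, and it fell in both lines there too (adjusted p = 1.82e-05 and 0.000375). These calls held on leaving out any 1 library. Of 11 aquaporins 5 were tested in PGK and 4 in E14, and no other passed.

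Of the N-glycan branching enzymes 7 were tested in each line, and only Mgat5, which adds a further branch, passed, in PGK at day 4, from 24.1 ± 18.1 to 3.83 ± 0.243 CPM (log2 fold change −2.72, SE 0.62, adjusted p = 0.0154). This call was lost without PGK diff3 at day 0 or either PGK library at day 4 (adjusted p 0.069 to 0.108). Mgat4a and Mgat4b, the nearest relatives, had day 0 levels of 17 and 51.2 CPM in PGK, against 10.7 and 30.6 CPM on day 4, and neither passed. With the experiment as a block 2 genes of the list fell in PGK at days 27 to 30, where 0 passed without it and 3 had an unadjusted p under 0.05 in edgeR and 3 were called by DESeq2.

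In the complex of Sgcz the members moved in different directions. Dmd, the dystrophin gene, fell in PGK from 265 ± 81.5 CPM to 63.8 ± 23.4 CPM at day 4 (log2 fold change −2.12, SE 0.33, adjusted p = 0.00197) and to 31.7 ± 2.76 CPM at days 27 to 30. E14 went from 190 ± 6.25 to 38 ± 4.52 CPM at the late stage (adjusted p = 0.00702), a call lost without either late E14 library (adjusted p 0.0592 to 0.0749). Sgce, a sarcoglycan found widely outside muscle, rose in both lines by days 27 to 30, from 17.4 ± 3.03 to 70.4 ± 7.81 CPM in PGK (adjusted p = 0.000735) and from 1.27 ± 1.79 to 39 ± 16.4 CPM in E14 (adjusted p = 0.0105). The syntrophin gene Sntb2 fell in PGK from 79.4 ± 3.1 to 39.4 ± 1.56 CPM (adjusted p = 0.00507). Dtna, a dystrobrevin gene, rose in E14 from 0.857 ± 0.793 to 18.8 ± 11.4 CPM (adjusted p = 0.0306). The call of Dtna was lost without E14 diff3 at day 0 or either late E14 library (adjusted p 0.0534 to 0.179).

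Among the genes around N-acetylaspartate, which Aspa breaks down, 2 of 7 tested rose at day 4 in each line, 1 rose in PGK at days 27 to 30, and 0 in E14 by edgeR. There DESeq2 called 2 higher, and 2 had an unadjusted edgeR p under 0.05. Nat8l, the enzyme that makes it, went in PGK from 0.409 ± 0.348 to 8.62 ± 5.27 CPM at day 4 (log2 fold change 4.25, SE 1.03, adjusted p = 0.0199) and in E14 from 0.149 ± 0.211 to 13.6 ± 7.28 CPM (6.02, SE 1.43, adjusted p = 0.0256). Rimkla, which joins it to glutamate, rose in PGK from 0.915 ± 0.491 to 9.58 ± 3.61 CPM at day 4 (adjusted p = 0.00517) and 11.2 ± 3.1 CPM at days 27 to 30 (adjusted p = 0.00252). E14 showed the same direction at day 4, from 1.08 ± 1.53 to 22.3 ± 0.74 CPM (adjusted p = 0.0493, and 0.0619 with the experiment as a block). At days 27 to 30 Nat8l measured 1.72 ± 1.3 CPM in PGK and did not pass (adjusted p = 0.167). None of the other 5 tested genes of this list passed in any of the 4 comparisons, among them Rimklb, which also joins it to glutamate (adjusted p = 0.477 in PGK and 0.137 in E14 at day 4). The calls of Nat8l and Rimkla in E14 were lost without either E14 library at day 4 (adjusted p 0.0685 to 0.161), and that of Nat8l in PGK without PGK diff2 at day 0 or at day 4 (0.089 to 0.117).

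Gprc5c, a relative of Gprc5a, rose in all 4 comparisons. It went from 5.36 ± 1.61 to 40.9 ± 2.48 CPM in PGK at day 4 (log2 fold change 2.85, SE 0.31, adjusted p = 0.000294) and to 124 ± 10.6 CPM at days 27 to 30. In E14 it went from 2.61 ± 3.27 to 19.8 ± 5.66 CPM (2.65, SE 0.72, adjusted p = 0.0435) and then 96.8 ± 24.4 CPM (adjusted p = 0.00271). Gprc5b fell in PGK at day 4, from 21.2 ± 2.95 to 8 ± 2.08 CPM (adjusted p = 0.0352), and measured 16.6 ± 3.97 CPM at the late stage. The E14 call of Gprc5c at day 4 was lost without either E14 library of that day (adjusted p 0.101 to 0.195), and that of Gprc5b without PGK diff2 at day 0 or either PGK library at day 4 (0.0779 to 0.22).

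Every aldehyde dehydrogenase that passed had fallen, 4 of 15 tested in PGK and 2 in E14 at day 4, and 5 and 1 at days 27 to 30, where 6.44%, 4.40%, 12.0% and 4.99% of all genes had fallen. DESeq2 called 4, 5, 6 and 3 lower, and of all genes 1671 of 14977, 1329 of 14065, 2622 of 15703 and 1443 of 14423. With 0 rising in each comparison by edgeR, 1 was higher at an unadjusted p under 0.05 in PGK and in E14 at day 4, and DESeq2 called 1 higher in E14 at day 4. Aldh1a3, a maker of retinoic acid, fell from 26.4 ± 14.3 to 0.151 ± 0.0842 CPM in PGK (log2 fold change −7.52, SE 0.86, adjusted p = 0.000358) and from 11.3 ± 7.51 to 0.0736 ± 0.104 CPM in E14 (−6.45, SE 1.54, adjusted p = 0.0263). Aldh1l1, of folate metabolism, fell from 69.4 ± 25.8 to 25.6 ± 12.7 CPM in PGK (adjusted p = 0.0292) and from 91.2 ± 37.3 to 5.59 ± 7.2 CPM in E14 (adjusted p = 0.0332). Aldh6a1, of valine breakdown, fell from 101 ± 14.9 to 34.1 ± 15.3 CPM at day 4 (adjusted p = 0.0209) and 19.8 ± 8.76 CPM late (adjusted p = 0.00207) in PGK. Aldh2, the mitochondrial enzyme that clears acetaldehyde, fell late in both lines, from 305 ± 39.7 to 54 ± 4.19 CPM in PGK (adjusted p = 0.000262) and from 328 ± 60.3 to 57.4 ± 1.18 CPM in E14 (adjusted p = 0.00963). Aldh1a3 in PGK was still low late, at 2.01 ± 0.231 CPM (adjusted p = 0.00303), and Aldh4a1, of proline breakdown, fell from 98.4 ± 32.2 to 48.8 ± 1.58 CPM (adjusted p = 0.0404). Calls lost on leaving out a library were Aldh1a3 and Aldh1l1 in E14 without diff3 at day 4 (adjusted p 0.137 for Aldh1l1, and 0.126 to 0.145 for Aldh1a3, which was also lost without diff2 at day 4). Aldh1l1 in PGK was lost without diff2 at day 0 or diff3 at day 4 (0.147 to 0.174), and Aldh6a1 at day 4 without diff3 at day 0 or diff2 at day 4 (0.0784 to 0.132). Aldh2 in E14 was lost without either late library (0.072 to 0.078), and Aldh4a1 without diff2 at day 0 or either late PGK library (0.142 to 0.209).

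Among autophagy receptors and their partners 1 of 15 tested rose and 2 fell in PGK at day 4. Calcoco1, Tax1bp1, Sqstm1 and Nbr1 did not pass in PGK at day 4, at 39.1, 229, 215 and 163 CPM against 41.4, 208, 238 and 243 CPM at day 0. Optn, a receptor for mitochondria, rose there from 7.88 ± 4.13 to 41.9 ± 23.7 CPM (log2 fold change 2.35, SE 0.51, adjusted p = 0.0118), with adjusted p = 0.0716 without PGK diff2 at day 4. Gabarapl2, one of the small proteins that such receptors bind, fell from 78.6 ± 59.2 to 9.77 ± 2.01 CPM at day 4 (adjusted p = 0.00387) and 15.5 ± 0.14 CPM late (adjusted p = 0.00769). Gabarapl1 fell from 86.3 ± 28.9 to 39.9 ± 1.21 CPM at day 4 (adjusted p = 0.0179). Bnip3l, another receptor for mitochondria, rose late in both lines, from 57.6 ± 21.1 to 160 ± 21.9 CPM in PGK (adjusted p = 0.0234) and from 66.8 ± 32 to 216 ± 39 CPM in E14 (adjusted p = 0.0453, and 0.055 with RLE size factors). The late Gabarapl2 call was lost without PGK diff3 at day 0 or late (adjusted p 0.0567 to 0.0574), and Gabarapl1 without PGK diff2 at day 0 or either PGK library at day 4 (0.0802 to 0.103). Bnip3l was lost without diff2 at day 0 or either late library of its line (0.0648 to 0.119 in PGK and 0.107 to 0.202 in E14). Accs, the only relative of Accsl, was low in PGK, where it had 4.61 CPM in 2i and 1.97 CPM on day 4, which did not pass.

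**Figure D3:**
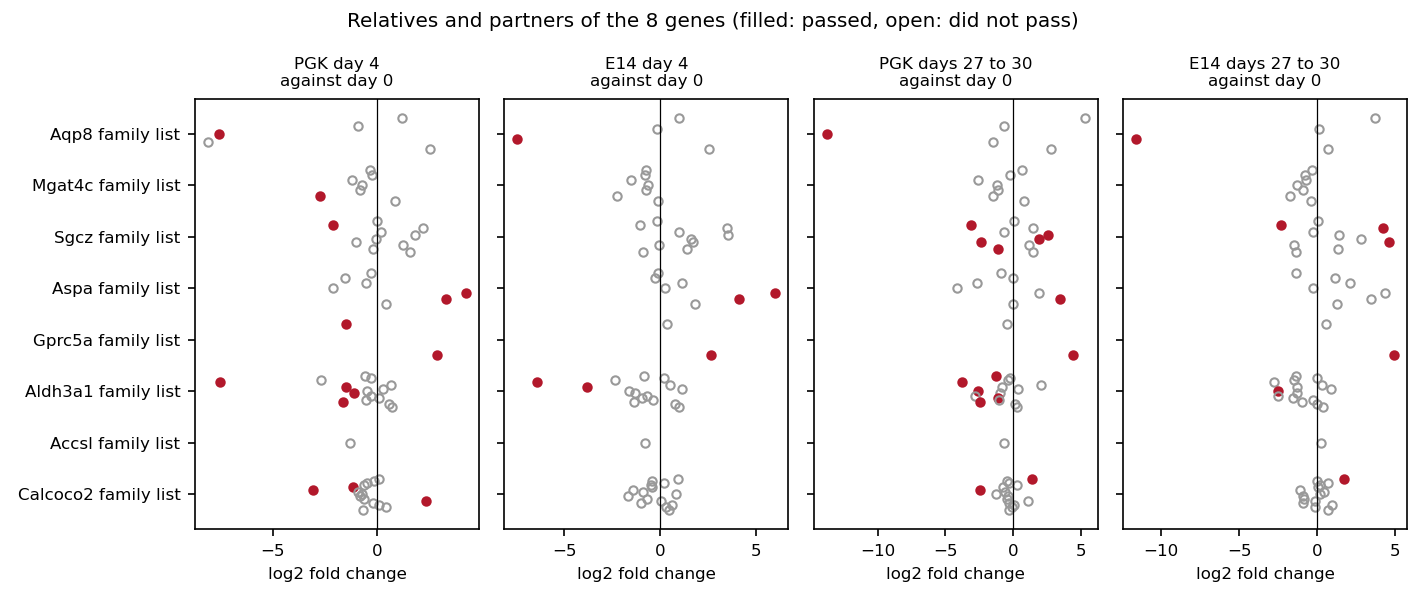
Log2 fold change of each tested relative or partner in the 4 comparisons with day 0, in rows by the gene whose list it belongs to; filled points passed edgeR at an adjusted p of 0.05 and open points did not. The leftmost filled point of the Aqp8 list is Aqp3 in each panel (−7.56 in PGK at day 4), and the filled points of the Sgcz list at days 27 to 30 lie on both sides of 0.

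The 2 nearest named genes on each side of each member were followed, 32 in all. Mir3059 and Mir383 are counted among them although they lie inside Mgat4c and Sgcz, and neither was tested. Of the 32 genes 23 were tested in PGK and 20 in E14. In PGK 4 fell by day 4 and 7 by days 27 to 30 (6.44% and 12.0% of all genes), and in E14 2 and 2 (4.40% and 4.99%). DESeq2 called 5 and 10 lower in PGK and 7 and 4 in E14. Of all genes it called 1671 of 14977 and 2622 of 15703 lower in PGK, and 1329 of 14065 and 1443 of 14423 in E14. None rose in edgeR, where 1 was higher at an unadjusted p under 0.05 in each comparison and DESeq2 called 1 higher, in PGK at day 4. The median log2 fold change of the neighbours was −0.88 in PGK and −0.51 in E14 at day 4, beside −0.01 and 0.15 for all genes tested. Spata22, a meiosis gene that starts 145 bases from Aspa on the other strand, had 1.46 and 4.11 CPM at day 0 in PGK and 0 counts at days 27 to 30, at least 41.9-fold less (adjusted p = 0.0422). The counting is not stated to use strand, but the 2 genes share no exonic bases. On the higher side of Calcoco2, Ttll6 went from 14.8 ± 0.485 to 0.23 ± 0.326 CPM (adjusted p = 0.025) and Hoxb13 from 3.2 ± 0.418 CPM to 0 counts, at least 48-fold less (adjusted p = 0.0337), while Atp5g1 and Ube2z on the lower side did not pass. Slc47a2, 83.2 kb from Aldh3a1, went from 1.41 ± 0.0744 CPM to 0 counts (at least 21.2-fold less, adjusted p = 0.0396). These low genes passed by narrow margins: Spata22, Hoxb13 and Slc47a2 were lost without any 1 of the 4 libraries (adjusted p 0.068 to 0.148), and Ttll6 without any but the late PGK diff2 library (0.0502 to 0.0954).

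Hebp1, a gene of a heme binding protein 52.8 kb from Gprc5a, fell in all 4 comparisons, from 75 ± 9.02 to 22.5 ± 2.34 CPM at day 4 (adjusted p = 0.00503) and 9.43 ± 3.19 CPM late (adjusted p = 0.000215) in PGK. In E14 it fell from 80 ± 12.9 to 12.3 ± 9.24 CPM (adjusted p = 0.0221) and 13.1 ± 2.89 CPM late (adjusted p = 0.0193). Those E14 calls were lost without diff2 at day 4 (adjusted p 0.0918) and without either late library (0.121 to 0.169). Dlc1, 569 kb from Sgcz, fell in E14 at day 4 from 153 ± 36.3 to 12.3 ± 7.54 CPM (adjusted p = 0.00363). Aldh3a2, 5 kb from Aldh3a1, fell in PGK at day 4 from 72.5 ± 10 to 34.7 ± 10.3 CPM (adjusted p = 0.0496), and Ext2, near Accsl, from 78.5 ± 22.2 to 38.4 ± 4.29 CPM (adjusted p = 0.0311). Arhgap17, near Aqp8, fell from 95.6 ± 12.3 to 48.8 ± 12.6 CPM at day 4 in PGK (adjusted p = 0.0389) and from 129 ± 26.6 to 48.9 ± 0.406 CPM late in E14 (adjusted p = 0.033). Aldh3a2 was lost on leaving out any 1 of its 4 libraries (adjusted p 0.0579 to 0.262), Ext2 without PGK diff2 at day 0 or either PGK library at day 4 (0.0911 to 0.172), and Arhgap17 without PGK diff3 at day 0 or either PGK library at day 4 (0.05 to 0.241), and in E14 without diff2 at day 0 or either late library (0.0536 to 0.228).

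**Figure D4:**
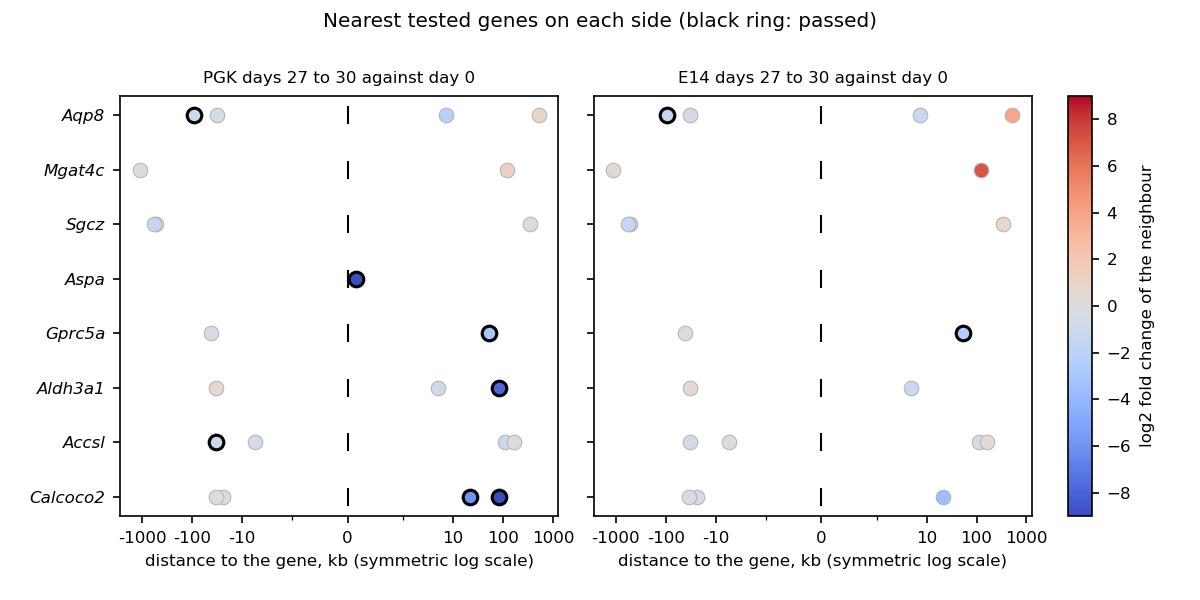
Tested neighbours of each gene at days 27 to 30 against day 0, placed by distance to the gene in kb on a symmetric log axis, with negative values on the side of lower coordinates; colour gives the log2 fold change, and a black ring marks genes that passed. In PGK 7 of 23 neighbours carry a ring and in E14 2 of 20, all with negative log2 fold changes.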

How the data were processed

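Raw read counts per gene for 20 libraries were deposited by the authors in 1 table per line, per the file headers, and are whole numbers. Per the submitters' processing notes, CASAVA 1.8.2, Cuffdiff and DESeq2 were used with GRCm38 (mm10), with no role given for each. Which aligner and annotation were used, and whether counting used strand, is not given in the sources used here. CPM are counts scaled to a library total of 1000000. The tables were joined by gene name; 27 names are dates and 4 occur more than once.

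Tests used edgeR 4.0.16 in R 4.3.3 (TMM, filterByExpr with a minimum count of 10, robust quasi-likelihood, Benjamini-Hochberg over all genes tested, threshold 0.05), on all 20 libraries for the comparisons of lines and experiments and on the 10 of a line for those with day 0; scripts were tested on simulated data. Standard errors are the size of the log2 fold change over the root of F. Alternatives were DESeq2 1.42.0, RLE size factors, no low-count filter, a term for the library code, the experiment as a block, a joint fit and leaving out each library. Per the labels, libraries of the same experiment name share a differentiation experiment, which pairs them; the deviations of paired libraries correlated at over 0.1 in 12 of 25 pairs of groups. Pearson r between replicates was 0.808 to 0.982 across genes, and no 2 libraries were duplicates.

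The members and lists were chosen with earlier results of these data known. Named are the 8 members, up to 4 genes by adjusted p per list and comparison among those that passed, the 2 nearest named genes on each side, and the 3 genes most alike; some of these are only counted, and 1 gene that the rule names is not reported here. The r without the PGK diff3 library at day 0, the difference between lines in the change to day 4, the levels over TMM library sizes, and the folds from each day 0 library alone were added after seeing the data.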

Additional observations from a re-analysis of the deposited data

How the results depend on the processing

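At day 0 the 8 members passed neither between the lines nor between the experiments under any alternative that was run, except Aqp8. It passed between the lines without the E14 diff2 library (log2 difference 11.94), against a shallow library with no counts, where the value is no bound. Neither the experiment block nor the library code term was fitted between the experiments. The choice of the members used their day 0 levels, so these tests are not independent of it. RLE size factors left all 7 counts of genes called within 1.5 times of the reported ones. With DESeq2 700 genes were called between the lines at day 0 (80 reported), 235 at day 4 (26), 2386 between the experiments (404), 3515 in PGK (2260) and 2856 in E14 (1386) at day 4, and 3597 in E14 at days 27 to 30 (1990). Without the low-count filter the first 3 counts were 181, 71 and 736. A term for the library code gave 185 and 66 genes between the lines at day 0 and day 4, and 3698 in PGK at day 4. It lost the edgeR calls of Spata22 (adjusted p = 0.0541), Slc47a2 (0.0509) and Hoxb13 (0.0539) in PGK at days 27 to 30. That of Rimkla in E14 at day 4 was lost too (adjusted p = 0.0519). The joint fit gave 2423 in E14 at day 4 and 3086 at days 27 to 30. With the experiment as a replicate block, which pairs the libraries, 44 genes were called between the lines at day 4. Single calls were followed for up to 4 genes by adjusted p per list and comparison and for all neighbours that passed, 54 calls in all and not every relative that passed. Of these 54 calls of relatives and neighbours, the block lost that of Rimkla in E14 and no other.

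Leaving out each library in turn gave 24 to 3317 genes between the lines at day 0, 6 to 35 at day 4 and 360 to 3332 between the experiments. It gave 1366 to 2210 in PGK and 474 to 4517 in E14 at day 4, and 2208 to 3644 and 645 to 4941 at days 27 to 30. The highest of these for E14 and between the lines came without E14 diff2 at day 0, where the lone day 0 library is the shallow one and is assumed to vary like the other groups; the median log2 fold change of all genes was then 0.76 to 0.87. Of the 54 calls of relatives and neighbours 22 held on leaving out any 1 library. Signs turned on leaving out 1 library, and the values ran between the lines at day 0 from −0.23 to 2.81 for Aspa, −0.66 to 0.018 for Gprc5a and −1.37 to 0.91 for Aldh3a1 (0.70 in its other turned fit). At day 4 they ran from −5.66 to 5.02 for Accsl (also 0.48) and −2.20 to 9.02 for Calcoco2. Between the experiments they ran from −5.83 to 5.08 for Mgat4c (also −5.79), −7.73 to 3.57 for Sgcz (also −7.70), −0.30 to 0.68 for Gprc5a, −2.07 to 1.47 for Aldh3a1 and −0.69 to 0.84 for Calcoco2; the cause was not tested. Values fitted against libraries with 0 counts depend on the prior count and are no bounds, and for Mgat4c the turned ones compare 5 counts with 0 in a library whose floor lies higher, so no direction can be read from them. The members' levels over TMM library sizes stayed within 1 SD of those reported. Depth limits the E14 diff3 libraries at day 0 and day 4.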
